A study of Lumnitzera littorea with 6 samples.

Results

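The gene models described here are the 150 that were reduced most in leaves of *Lumnitzera littorea* under salt stress, out of 26139 gene models in the table. They were chosen by their level. Levels in CPM, counts relative to a library size scaled by the trimmed mean of M-values (TMM), were computed for the 18073 gene models that passed edgeR's low-count filter. The candidates were the 14203 gene models with a mean of at least 5 CPM in the control that were not among the 100 most abundant. Of these, the 150 with the lowest log2 ratio of mean CPM in salt stress to mean CPM in the control were taken, with 0.1 CPM added to both means. Their levels in these 6 libraries therefore chose them, and are given as a description without a test.

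*L. littorea* is a true mangrove tree of the family Combretaceae. Seedlings grown for a year from wild-collected seed were given fresh water (CK, 3 libraries) or saline water with 400 mM NaCl for 3 days (salt stress, 3 libraries), and leaf RNA was sequenced. Genotype is not given beyond the species, and both groups were raised from seed of the same site. By the methods, RNA was taken from each treated individual, with 3 biological replicates in the treatment group.

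High salinity reaches a leaf as an osmotic load, which limits water uptake, and as an ionic load, as sodium and chloride accumulate in the cells. Plants commonly respond by closing stomata, slowing growth and changing the transcription of many genes, and mangroves are known for tolerating far more salt than most crops. A transcript can fall because it is made less or because it is degraded faster, and counts of steady-state RNA record the sum of both. In whole leaves, fewer cells of a type and less RNA per cell cannot be told apart. The table pairs its gene models with no gene names or functions, and no annotation was used here, so members are given by their identifiers and no role is assigned to any of them. For the same reason the leaf label could not be checked against marker genes. An identifier such as evm.model.36.23 holds 2 numbers, read here as a scaffold (36) and a place in the gene order along that scaffold (23). How reads that fit several places were counted is not given in the sources used here, so near-identical copies may share reads.

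The 150 members together fell from 8427 ± 101 CPM in CK to 1138 ± 5.13 CPM in salt stress (SD, n = 3 each), which was 7.40-fold lower. They took between 0.889% and 0.906% of the counts of each CK library, and 0.107% of the counts in each salt stress library. The 3 CK libraries were close to each other, with sums of 8542, 8390 and 8350 CPM in replicates 1, 2 and 3. The salt stress libraries summed to 1137, 1134 and 1144 CPM, so the groups stood far apart and no library deviated from its group in this sum. By the ratio of the rule, with 0.1 CPM added to both means, a single member was reduced by at least 4.47-fold and the median member by 6.30-fold (log2 ratio -2.65). The median reduction was 6.61-fold with nothing added. The median log2 ratio of all tested gene models was -0.0024. All 150 members passed the thresholds as lower in salt stress, a log2 fold change under -1 with an adjusted p under 0.05 in edgeR's quasi-likelihood test. Among the tested gene models 7.12% passed in this direction, and nothing is read from the comparison because the rule used the same contrast. In all 150 members the highest salt stress library lay below the lowest CK library, as it did in 36.5% of the tested gene models. All 150 were also called lower by DESeq2, limma voom and edgeR's glmTreat against a 2-fold change, which called 6.21%, 7.25% and 4.69% of the gene models they tested in this direction. The smallest separation between these libraries among the members was 3.24-fold. The members were 11.7% of the 1287 gene models called lower, and the other 1137 had smaller reductions or failed a condition of the rule.

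**Figure D1:**
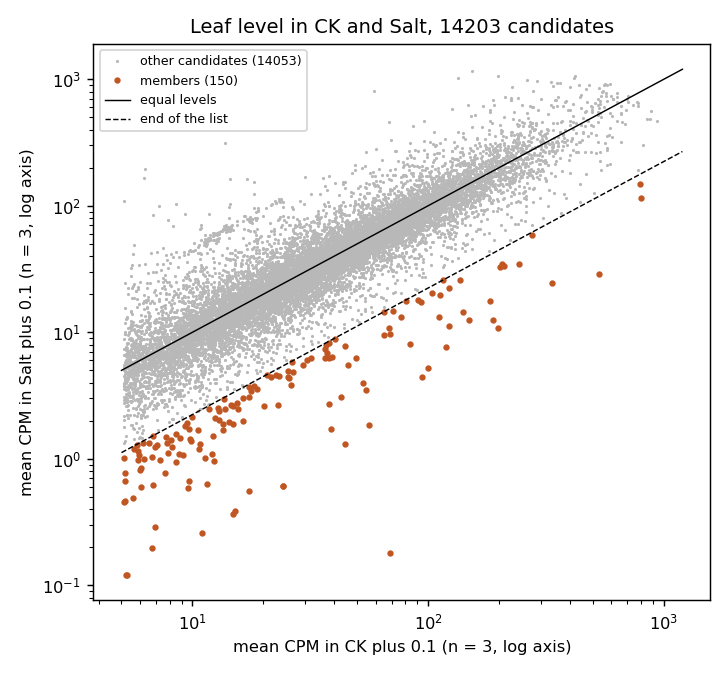
Mean level of each candidate gene model in CK (horizontal) and salt stress (labelled Salt, vertical), in CPM plus 0.1 on log axes, n = 3 libraries each, with members in orange and other candidates in grey. Members lie below the dashed line that ends the list at a log2 ratio of -2.16, at CK levels from 5.03 to 802 CPM.

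The end of the list cut through a continuous range. The last members were evm.model.5.396, evm.model.80.81 and evm.model.3.56, with log2 ratios of -2.17, -2.17 and -2.16. The next gene models, evm.model.64474.47, evm.model.26.727 and evm.model.100.281, had log2 ratios of -2.15, -2.15 and -2.14 and were left out. Of the candidates, 182 had a log2 ratio of -2 or lower, so 32 gene models with at least a 4-fold reduction are not members. The minimum level in CK also mattered, since 91 tested gene models under 5 CPM in CK had a ratio at least as low as the last member. The 100 most abundant gene models held none, and their lowest log2 ratio was -1.41.

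Reductions were unevenly spread over the list. By the ratio of the rule, 10 members were reduced by more than 32-fold, another 10 by between 16-fold and 32-fold, 32 by between 8-fold and 16-fold, and 98 by less. The added 0.1 CPM makes the reduction of members with few counts smaller. With nothing added, these numbers were 12, 10, 37 and 91. Within the limits of the rule members had all levels, with 46 at 5 to 10 CPM in CK, 34 at 10 to 20 CPM, 32 at 20 to 50 CPM, 16 at 50 to 100 CPM and 22 above 100 CPM. The lowest class was taken most often, with 2.59% of its candidates, against 0.569% at 50 to 100 CPM and 1.07% above 100 CPM. In CK 53 members lay above the median candidate, at 32.4 CPM. In salt stress 6 members did (median candidate 32.8 CPM), and the median member had 2.40 CPM. The mirror list, the 150 highest ratios among gene models with at least 5 CPM in salt stress and outside the 100 most abundant, had a median log2 ratio of 4.56 and 54 gene models with at least a 32-fold rise. It takes its minimum from the other group, so the lists are set side by side without a comparison.

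**Figure D2:**
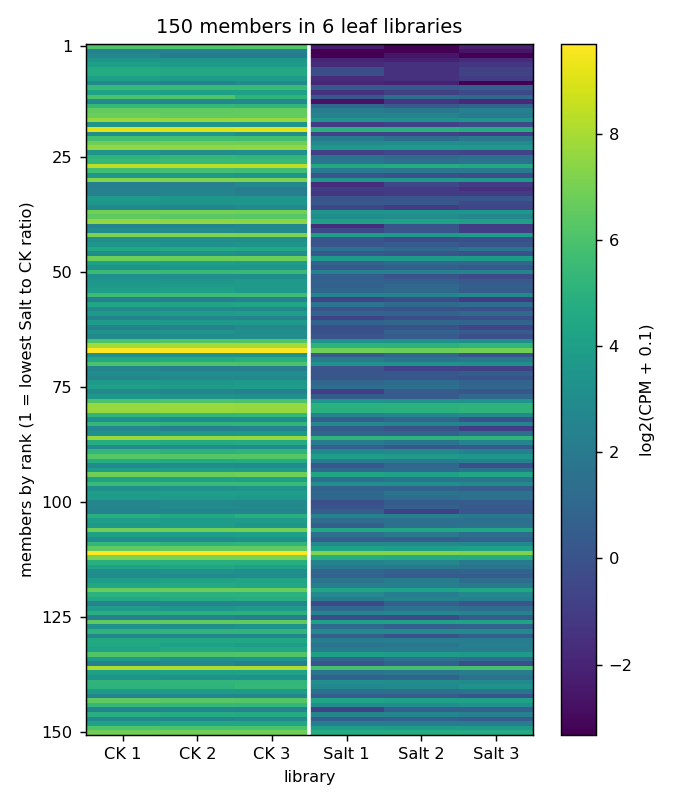
Level of each member (rows, ordered from the lowest ratio at the top) in each of the 6 libraries (columns), as log2(CPM + 0.1). Every row is darker in the 3 salt stress libraries (labelled Salt) than in the 3 CK libraries, and bright rows, the abundant members, occur at ranks 19, 67 and 111 rather than at one end of the list.

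The member with the lowest ratio, evm.model.36.23, had 1342, 1175 and 1460 counts in CK replicates 1, 2 and 3, and 2, 0 and 2 counts in the salt stress replicates. It was moderately abundant in CK, at 68.8 ± 1.51 CPM (SD, n = 3), and close to undetected in every salt stress library. Its log2 ratio was -8.59, and that of the second member, evm.model.80.124, was -5.44. The added 0.1 CPM limits such a ratio, to -5.72 at the CK level of evm.model.80.124, so the distance between these ratios is no measure of which reduction was larger. The normalized counts of evm.model.36.23 differed 855-fold (exact 95% interval 334 to 3141).

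In all, 5 members had at most 3 counts in every salt stress library. In evm.model.80.124 the counts were 101, 91 and 106 in CK and 0, 0 and 1 in salt stress, and the normalized counts were 256-fold lower, with an exact 95% interval of 45.7 to 10159 that includes the value of evm.model.36.23. For evm.model.4.42, with 126, 77 and 93 counts in CK and 0, 1 and 0 in salt stress, the ratio was 255-fold (exact 95% interval 45.4 to 10091). Both intervals are wide because they rest on 1 count in salt stress. More counts were left in evm.model.64188.2, with 209, 189 and 231 counts in CK and 3, 2 and 3 in salt stress, and the ratio of 67.6-fold had an exact 95% interval of 34.1 to 157. The counts of evm.model.5.825 were 136, 98 and 152 in CK and 3, 2 and 0 in salt stress, a 66.4-fold lower level (exact 95% interval 28.2 to 206). These intervals cover counting error only. A count was worth between 0.0483 and 0.0645 CPM, and 3 counts between 0.145 and 0.194 CPM, depending on the library. A salt stress library at 0 was found for 4 members, so residual expression below these limits was not detectable there.

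The other 5 of the 10 lowest ratios kept between 4 and 22 counts in every salt stress library. The most abundant of them was evm.model.64427.158, with 825, 783 and 949 counts in CK and 21, 17 and 22 in salt stress. It went from 44.3 ± 2.18 to 1.21 ± 0.153 CPM (SD, n = 3 each). Levels in evm.model.57417.1 were 511, 405 and 483 counts in CK and 14, 4 and 8 in salt stress. Salt stress replicate 1 was the highest of its group for this gene model and replicate 2 the lowest, and all 3 lay far below CK. The counts of evm.model.95.97 were nearly the same, at 511, 399 and 479 in CK and 14, 4 and 8 in salt stress. These gene models lie on different scaffolds, and since they differed by at most 6 counts in any library, whether they are separate genes was not tested.

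**Figure D3:**
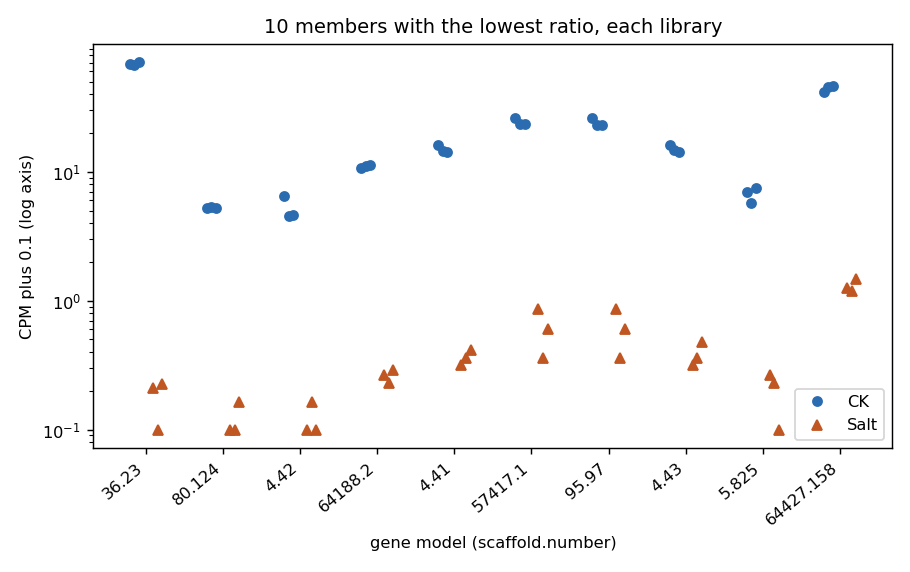
Level of the 10 members with the lowest ratio in each library, in CPM plus 0.1 on a log axis, where a library with 0 counts sits at 0.1. CK libraries (blue circles) and salt stress libraries (labelled Salt, orange triangles) do not overlap for any of the 10, and evm.model.36.23 at the left shows the widest gap on this axis, where the added 0.1 CPM narrows the gaps of members with low levels.

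At the other end of the scale, a few abundant members carried much of the summed signal. The 6 members with the highest level in CK made up 35.4% of the summed CPM in CK and 36.1% in salt stress. The most abundant, evm.model.30.72, had 828, 783 and 796 CPM in CK and 111, 110 and 122 CPM in salt stress, with no overlap. It was 7.01-fold lower and still ranked above 87.9% of the candidates in salt stress, compared with 99.96% in CK. A similar level was found for evm.model.64488.105, at 817, 789 and 779 CPM in CK and 151, 153 and 144 CPM in salt stress. This 5.32-fold reduction left it above 92.1% of the candidates. The strongest reduction among the 6 was that of evm.model.12.158, which had 552, 515 and 529 CPM in CK and 30.1, 30.8 and 26.2 CPM in salt stress, 18.3-fold lower. Next was evm.model.4.133, from 336 ± 3.17 to 24.6 ± 2.14 CPM (SD, n = 3 each), a 13.7-fold reduction that moved it from above 98.7% to above 40.2% of the candidates. Reductions were smaller for evm.model.7.688, from 275 ± 2.22 to 58.7 ± 1.95 CPM, and for evm.model.30.147, from 244 ± 5.30 to 34.6 ± 2.49 CPM (SD, n = 3 each). Both stayed above the median candidate in salt stress, so a low ratio did not mean a low remaining level for these gene models.

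Some members lay next to each other in the gene order, which the rule did not use. The 150 members were spread over 64 of the 603 scaffolds with a tested gene, with 1 member on 28 of these scaffolds and at most 9, on scaffold 12. Scaffold 12 held 520 tested gene models, of which 1.73% were members, against 0.830% of all tested gene models. Among the 52 scaffolds with at least 100 tested gene models, the share was above 0.830% on 26 and below it on 26, with 0 members on 8, a median of 0.846% and a highest share of 3.23%, on scaffold 80 (4 members of 124 tested gene models). The numbers in the identifiers are not continuous, and 12285 of them are not in the table used here, so adjacent means that the numbers differ by 1. There were 5 runs of adjacent members with 13 members in all. Of these, 2 runs held 3 or more gene models and 3 runs were pairs, on scaffolds 5, 34 and 41.

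The longest run was made up of 4 gene models on scaffold 12, evm.model.12.156 to evm.model.12.159. All 4 were abundant in CK, and together they took 12.6% of the summed CPM of the members. Their sum went from 1063 ± 32.5 to 69.7 ± 2.58 CPM (SD, n = 3 each). The counts of evm.model.12.156 were 3745, 3188 and 3616 in CK and 320, 282 and 271 in salt stress. Those of evm.model.12.157 were 3084, 2559 and 2996 in CK and 220, 196 and 199 in salt stress. In evm.model.12.159 the counts were 3996, 3412 and 4061 in CK and 196, 159 and 177 in salt stress. Reductions thus differed within the run, from 10.3-fold and 12.0-fold in the first 2 gene models to 18.3-fold and 18.4-fold in the last 2. A few places further on, evm.model.12.164 was also a member, with 1026, 966 and 1063 counts in CK and 73, 56 and 63 in salt stress.

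The surroundings of this run, 10 places on either side, were examined after its values had been seen. Between numbers 146 and 169 on scaffold 12 the table held 22 gene models, of which 13 were tested and the other 9 had at most 5 counts in any library. Just before the run, evm.model.12.151 and evm.model.12.153 went the other way. Counts of evm.model.12.151 were 34, 20 and 27 in CK and 370, 288 and 317 in salt stress, and the log2 fold change was 3.80 (edgeR adjusted p = 1.92e-25, standard error 0.14). Counts of evm.model.12.153 were 11, 9 and 16 in CK and 277, 240 and 287 in salt stress, and the log2 fold change was 4.69 (edgeR adjusted p = 3.85e-25, standard error 0.18). Gene models called in both directions therefore lay within a few places of each other. Right behind the run, evm.model.12.160 went from 3.52 ± 0.552 to 2.98 ± 1.04 CPM (SD, n = 3 each). Its log2 fold change of -0.25 did not pass the test (edgeR adjusted p = 0.275). Further on, evm.model.12.168 was called lower without being a member, with a log2 fold change of -1.71 (edgeR adjusted p = 1.41e-20, standard error 0.088).

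The other run of at least 3 lay on scaffold 4, with evm.model.4.41, evm.model.4.42 and evm.model.4.43, all among the 10 lowest ratios. Counts of evm.model.4.41 were 316, 248 and 291 in CK and 4, 4 and 5 in salt stress. Those of evm.model.4.43 were 318, 256 and 291 in CK and 4, 4 and 6 in salt stress. The counts of these gene models differed by at most 8 in any library, while evm.model.4.42 between them had at most 126 counts in a library. Reads shared between near-identical copies would give such equal counts, and their part in this run was not tested. The nearest tested gene models were evm.model.4.46, at a log2 fold change of -0.08 (edgeR adjusted p = 0.232), and evm.model.4.35 on the other side, at -0.55 (edgeR adjusted p = 1.46e-16), and neither passed the thresholds. Within 10 places of this run evm.model.4.32 was called higher, with a log2 fold change of 2.80 (edgeR adjusted p = 8.85e-21), and evm.model.4.51 was called lower, with one of -1.02 (edgeR adjusted p = 2.56e-16), close to the threshold.

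**Figure D4:**
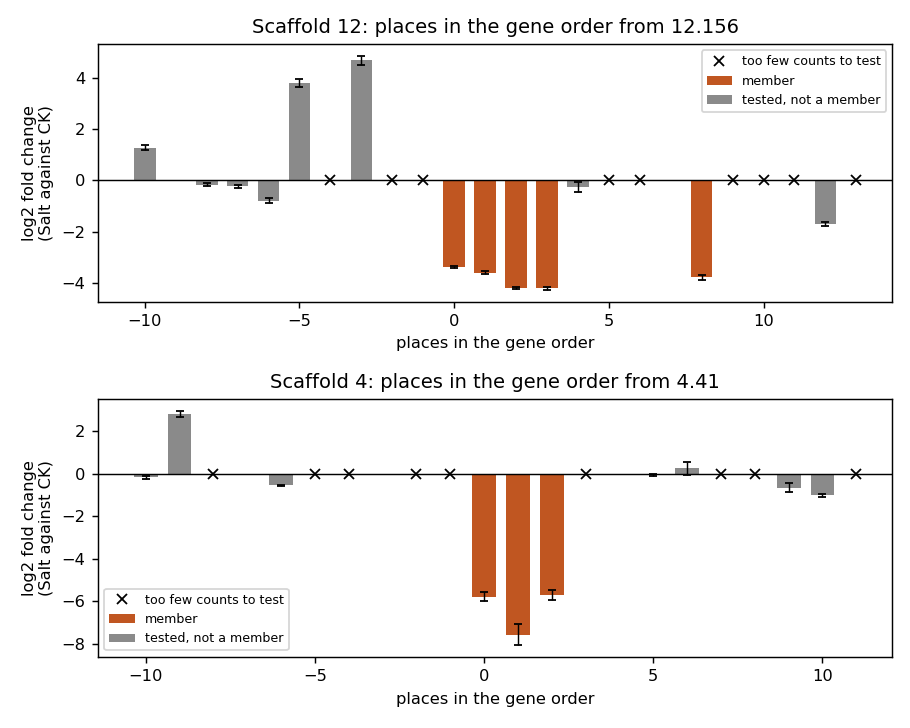
Log2 fold change of salt stress against CK from edgeR (vertical) for gene models around the runs on scaffold 12 and scaffold 4, by their number of places from the first gene model of the run (horizontal), with standard errors as bars. Members are orange, other tested gene models grey, crosses had too few counts to test, and blank places are numbers that are not in the table used here. Next to the run on scaffold 12 stand tested gene models with a log2 fold change of 3.80 and 4.69, and the fitted value of evm.model.4.42 rests on 1 count in salt stress.

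Over all members, the calls of the tested neighbours were set beside the background of all tested gene models. The background holds the 150 members, all called lower, while the neighbours leave members out, so the 2 are not fully alike. Of 124 tested gene models that were adjacent to a member and not members themselves, 11 were called lower (8.87%) and 8 higher (6.45%), against 7.12% and 12.1% of all tested gene models. At 2 places, 12 of 130 were called lower (9.23%) and 14 higher (10.8%), and at 3 to 5 places 45 of 403 were called lower (11.2%) and 34 higher (8.44%). The neighbours' shares of lower calls lay near the background, above it by a few percentage points at most. This excess was smallest next to a member and largest at 3 to 5 places. Their shares of higher calls were below the background. Neither was tested, and nothing about the members is read from these shares. The median log2 fold change was -0.21 for the adjacent gene models, -0.035 at 2 places and -0.051 at 3 to 5 places, where it was -0.0032 over all tested gene models.

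Near-equal counts were looked for over the whole list, as differences of at most 5% or 5 counts in every library. They joined 6 members in 3 pairs, evm.model.57417.1 with evm.model.95.97, evm.model.4.41 with evm.model.4.43, and evm.model.14.390 with evm.model.64294.23. In the last pair, named here after its values were seen, the counts were 98, 100 and 90 in CK and 8, 6 and 4 in salt stress for evm.model.14.390, and 100, 96 and 95 in CK and 6, 6 and 6 in salt stress for evm.model.64294.23. The share of members with such a partner was 4%, against 41.3% of all tested gene models. These shares are not alike. A tolerance of 5 counts is met more easily by gene models with few counts, and each member had at least 288 counts summed over CK. Members also have low ratios by the rule, which few gene models share. Unrelated gene models can meet the tolerance, so neither share is a rate of copies, and nothing is read from the difference.

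Replicates of a member usually lay close together. The median coefficient of variation over the 3 libraries was 5.21% in CK and 15.1% in salt stress, against 4.18% and 5.14% for the candidates. The wider spread in salt stress went with the low counts there. Of the members, 66 had 1 to 5 CPM in salt stress, and their median coefficient of variation was 17.1%, compared with 16.0% for the other 2676 tested gene models at this level. For the 35 members at 5 to 20 CPM it was 8.75%, and for the other tested gene models at this level 8.02%. At 20 to 100 CPM it was 5.54% for 11 members and 4.64% for the others, and above 100 CPM 4.56% for 2 members and 2.93%. In each class of level in salt stress the members had the larger median, also under 1 CPM (31.2% against 29.7%). Levels were not matched within a class, the 2 highest classes held 11 and 2 members, and the differences were not tested. In CK, members at 5 to 20 CPM had 7.13%, and the other tested gene models at this level 7.11%. At 20 to 100 CPM in CK these were 4.25% and 3.77%, and above 100 CPM 1.84% and 2.16%.

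The widest spread within CK was that of evm.model.9.371, with 1268, 1183 and 739 counts in CK replicates 1, 2 and 3, or 64.2, 68.3 and 35.7 CPM. CK replicate 3 was the lowest of its group and still far above salt stress, which had 18, 37 and 30 counts. Its coefficient of variation in CK was 31.7%. The next were evm.model.4.42, with 21.6%, and evm.model.12.371, with 19.6%, whose counts were 94, 86 and 139 in CK and 4, 9 and 6 in salt stress. Within salt stress, the largest coefficients of variation were 173% in evm.model.80.124 and evm.model.4.42, each with a single count in 1 of the 3 libraries, and 88.4% in evm.model.5.825. No library was the lowest throughout. Salt stress replicates 1, 2 and 3 were the lowest of their group for 49, 45 and 56 members, and CK replicates 1, 2 and 3 the highest of theirs for 62, 48 and 40.

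Since the levels had chosen the members, the choice was repeated without 1 library at a time, and the 150 gene models found were read in the library left out. This library had no part in choosing them, and the libraries of the other group are shared between the choice and the reading. Without salt stress replicate 1, the median log2 ratio in that library against the CK mean was -2.75, and it was -2.67 for replicate 2 and -2.78 for replicate 3. The median over all tested gene models lay between -0.0046 and -0.0029 in these readings. The libraries that took part in the choice gave -2.68, -2.73 and -2.69, so a library that had not been used showed reductions of about the same size. In each salt stress library left out, all 150 gene models lay at a log2 ratio of -1 or lower, where 7.35% to 7.38% of the tested gene models did. A log2 ratio of -2 or lower was kept by 142, 138 and 137 of the 150, where 1.79%, 1.67% and 1.82% of the tested gene models had one. The smallest reduction was a log2 ratio of -1.37, in evm.model.71.69 (named after its values were seen) in salt stress replicate 2. With a CK library left out, the median was -2.65, -2.67 and -2.62. All 150 again lay at -1 or lower, where 7.19%, 7.06% and 6.97% of the tested gene models did. These readings come from single libraries and have no spread of their own.

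**Figure D5:**
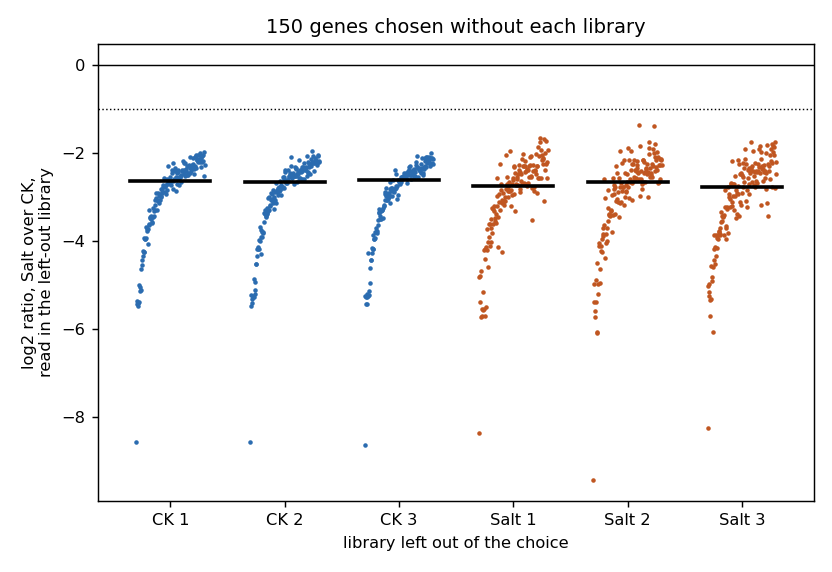
Log2 ratio of salt stress to CK (vertical) for the 150 gene models chosen without a given library (horizontal), read in that library against the 3 libraries of the other group, with 1 point for each gene model, a bar at the median and a dotted line at -1. Medians lie between -2.78 and -2.62, and every point is below the dotted line.

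Of the 63 *LlMADS* genes, the only family that the sources name, 10 were tested, 6 were candidates and 0 were members. By edgeR's quasi-likelihood test 0 of the 10 were called lower in salt stress, against 7.12% of all tested gene models. With only 10 tested, nothing about the family is read from this. Their lowest log2 ratio was -0.61, well above the end of the list.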

How the data were processed

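Leaf RNA of 3 CK and 3 salt stress libraries was analysed. The authors checked reads with FastQC, aligned them with HISAT2 and counted them per gene model with featureCounts. The deposited values are raw counts without normalization, totalling between 16273192 and 19456211 per library. The sources used here do not give strand and multi-mapping settings. Samples and groups were taken from the titles, 0 columns were left unassigned, and *LlMADS* locus names came from the supplementary table. No genome was used.

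From the counts, edgeR 4.0.16 in R 4.3.3 was run with filterByExpr (minimum count 10), TMM factors, robust quasi-likelihood fits by condition and Benjamini-Hochberg adjustment over 18073 gene models, with an absolute log2 fold change above 1 and an adjusted p under 0.05 required, as in the methods of the study. The study used DESeq2, which was run as an alternative (1.42.0), next to limma voom (3.58.1), glmTreat, other scalings and filters, a block for the replicate number, and fits without each library. The scripts were tested on simulated data. Exact intervals are Clopper-Pearson intervals at 95%.

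Named are the 10 lowest ratios, the 6 highest levels in CK, members with at most 3 counts in every salt stress library, the 3 gene models on either side of the end of the list, runs of at least 3 adjacent members, the 3 widest spreads in each group and members whose call was lost in an alternative (there were 0); additions are marked. The members, lists and rules were chosen with earlier results of these data known. Libraries of a group differed by more than counting noise (lowest chi-square per degree of freedom 1.66, highest 3.88) and all were kept as replicates. The common biological coefficient of variation from edgeR was 3.60%. These values do not show whether each library came from a separate plant, and the methods name biological replicates for the treatment group only.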

Additional observations from a re-analysis of the deposited data

How the results depend on the processing

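All 150 members stayed lower in salt stress past the thresholds in each of the 15 alternative fits. Among all tested gene models 7.12% were called lower in the main fit and 4.69% with glmTreat. The rule had chosen the members in these same libraries, with reductions of at least 4.47-fold, so nothing is read from their calls. Of 750 log2 fold changes of named gene models, 749 kept direction and call. These belong to 50 gene models, the 27 named by the rule together with the tested gene models around both runs, the near-equal pairs and the smallest reduction in each library left out. The exception was evm.model.4.51, which was not called with glmTreat (log2 fold change -1.02, edgeR adjusted p = 0.880). Gene models called lower numbered 848 in place of 1287 with glmTreat, where the tested change is 2-fold. With total counts alone, 49.5% of calls were lower against 37.0% with TMM, and the median log2 fold change of all tested gene models was -0.18. The median log2 ratio of the list, chosen anew each time, was -2.89 with total counts alone, -2.30 with a pseudocount of 1 CPM, -3.02 with a mean of at least 1 CPM in CK and -2.41 with at least 10 CPM, against -2.65. Without 1 library it ranged from -2.73 to -2.63. Of the 150 members, 132, 102 and 104 were kept in the last 3 rules, and 146 with total counts alone. Between 142 and 147 were kept with 1 library left out. The replicate number as a block gave 1297 gene models lower. Over all tested gene models, deviations of same-numbered libraries had correlations between -0.024 and 0.035. Those of libraries with different numbers lay between -0.063 and 0.052, so the same number went with no closer likeness by this measure. A pairing that touches only part of the gene models would not show in it. The last member and the next gene model were 0.012 apart on the log2 scale, and below 3 counts depth limits every ratio. No outlier test was run on groups of 3.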
